A study of Homo sapiens with 16 samples.

Results

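The nucleosome remodeling and deacetylase (NuRD) complex was followed through 9 of its subunit genes, *MBD3*, *MBD2*, *CHD4*, *CHD3*, *HDAC1*, *HDAC2*, *RBBP4*, *GATAD2A* and *GATAD2B*, in peak lists of 2 histone acetylation marks in epithelial ovarian cancer (EOC) cells. A window was set around each gene in hg19, the build of the lists, and extended by 10 kb on each side. Every peak that overlapped a window was taken, which gave 350 of the 179689 peaks listed over 8 lists. H3K27ac was profiled in cisplatin (cPt)-sensitive A2780 cells, an endometrioid EOC line, in A2780cis cells, their resistant derivative, in CAOV4 cells, a high-grade serous EOC line, and in CAOV4cis cells, which were derived from CAOV4 by prolonged cPt treatment. Both resistant lines were kept in medium with cPt and the sensitive lines were not, so acquired resistance and ongoing exposure cannot be told apart. H3K27ac was also profiled in A2780 cells made Tet-on competent and transduced with a doxycycline-inducible lentiviral vector for shMBD3.26 or shMBD3.232, shRNAs against *MBD3*. These cells were selected for the vector with an antibiotic, and knockdown was induced for 1 week before GFP-positive cells were sorted. H3K9ac was profiled in untransduced A2780 and A2780cis cells only. All chromatin carried a *D. melanogaster* spike-in. Each condition is 1 library, so no difference in these data has a replicate check, and no order of neighboring values can be set against a spread between replicates. Cells with a control shRNA were not analysed here, and the shRNA lists were compared with untransduced A2780 cells. Effects of the knockdown and of transduction, antibiotic selection, doxycycline and sorting cannot be told apart in that comparison.

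NuRD couples ATP-dependent nucleosome remodeling to histone deacetylation. MBD3 and MBD2 are alternative methyl-CpG-binding-domain subunits, CHD4 and CHD3 the alternative remodeling ATPases, and HDAC1 and HDAC2 the deacetylases that remove acetyl groups from histone tails. RBBP4 binds histones, and GATAD2A and GATAD2B bridge the MBD subunit to the CHD ATPase. H3K27ac marks active promoters and enhancers, and H3K9ac is found mostly at active promoters.

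The shRNAs target the RNA of *MBD3*, so acetylation at the *MBD3* gene does not check the knockdown. Both guide sequences, listed with the study's plasmids, are shown because the comparison of the A2780 lists rests on them. They are 22 bases long and share no run longer than 5 bases on either strand.
shMBD3.26: aacaaggtcaagagcgacccgc
shMBD3.232: ttgctcatcagcatcttgcccg

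Promoter sequences from RefSeq (GRCh38.p14), 250 bases up to the annotated start, are shown for *MBD3*, the target of the shRNAs, and for the 4 genes that lacked a promoter peak in at least 1 list. Capitals mark CpG dinucleotides. The coordinates belong to GRCh38.p14 and were not converted to the build of the lists. The *MBD3* promoter lies at chr19:1592866-1593115, *MBD2* at chr18:54224670-54224919, *CHD4* at chr12:6606452-6606701 and *HDAC2* at chr6:113971149-113971398, all on the minus strand, and *HDAC1* at chr1:32291833-32292082 on the plus strand.
MBD3: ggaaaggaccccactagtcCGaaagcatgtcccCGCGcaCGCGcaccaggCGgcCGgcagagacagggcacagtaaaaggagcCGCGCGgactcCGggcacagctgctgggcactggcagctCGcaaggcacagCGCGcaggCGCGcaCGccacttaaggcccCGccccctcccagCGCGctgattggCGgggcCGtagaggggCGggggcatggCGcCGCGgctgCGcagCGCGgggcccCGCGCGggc
MBD2: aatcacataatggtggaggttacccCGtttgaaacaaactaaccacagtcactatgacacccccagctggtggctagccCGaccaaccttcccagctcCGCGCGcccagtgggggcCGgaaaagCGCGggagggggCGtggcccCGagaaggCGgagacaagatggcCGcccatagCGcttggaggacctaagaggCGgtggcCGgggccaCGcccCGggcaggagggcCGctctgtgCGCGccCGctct
CHD4: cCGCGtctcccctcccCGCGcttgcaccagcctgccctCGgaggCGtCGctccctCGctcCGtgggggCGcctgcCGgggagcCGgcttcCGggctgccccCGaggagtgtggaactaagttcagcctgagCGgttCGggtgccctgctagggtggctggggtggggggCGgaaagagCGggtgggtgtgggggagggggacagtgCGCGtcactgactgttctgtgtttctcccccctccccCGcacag
HDAC1: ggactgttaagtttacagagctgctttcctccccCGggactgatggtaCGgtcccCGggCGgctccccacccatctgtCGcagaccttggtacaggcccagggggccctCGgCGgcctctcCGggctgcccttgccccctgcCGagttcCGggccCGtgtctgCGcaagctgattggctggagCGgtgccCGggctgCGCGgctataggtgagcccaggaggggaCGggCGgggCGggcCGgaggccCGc
HDAC2: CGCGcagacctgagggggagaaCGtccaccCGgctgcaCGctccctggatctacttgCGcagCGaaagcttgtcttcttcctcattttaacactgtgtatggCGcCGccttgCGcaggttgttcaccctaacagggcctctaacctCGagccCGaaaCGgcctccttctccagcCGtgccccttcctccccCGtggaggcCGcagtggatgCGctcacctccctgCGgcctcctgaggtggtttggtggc

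These stretches held 32 CpG in *MBD3*, 21 in *MBD2*, *CHD4* and *HDAC1* and 18 in *HDAC2*. The counts of the other genes were 37 in *RBBP4*, 25 in *GATAD2A*, 17 in *GATAD2B* and 9 in *CHD3*. The promoters of 8 of the 9 genes thus lay above the median of 11 over 35116 RefSeq promoters of the same length, and *CHD3* lay below it. The GC box GGGCGG, searched on both strands, was present in 7 of 9, against 42.6% of all promoters. CCAAT was present in 5 of 9, against 32.0%, and CCGGAAG in 2 of 9, against 8.52%. TATAAA was found in 0 of 9 and in 10.7% of all promoters. Such matches describe letters and not bound sites.

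The lists give the start and end of each peak and a score that is 0 in every row, so that widths and positions can be compared but not signal strength, and the read depth is unknown. Peak numbers ran from 15365 to 28662 per list and median peak widths from 1.6 to 2.8 kb. All peaks used lay on a grid of 200 bp, and no gap between peaks of a list was under 1000 bp. All 9 windows end before the last listed peak of their chromosome in every list. A gene without a listed peak can still carry acetylation under the authors' threshold.

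For each gene, the promoter peak was defined as the widest peak overlapping the first 10 kb inside the 5′ end of the unextended window. In A2780 H3K27ac, A2780cis H3K27ac and both shRNA lists, all 9 genes had one. The A2780cis H3K9ac list also had one for 9 genes and the A2780 H3K9ac list for 8, without *HDAC1*. Only 7 genes had one in CAOV4, which lacked *MBD2* and *HDAC2*, and 7 in CAOV4cis, which lacked *CHD4* and *HDAC1*. In the 4 H3K27ac lists of A2780 and its derivatives, every one of the 9 promoter peaks was at least as wide as the median peak of its list. Fewer genes reached the median in CAOV4 and in CAOV4cis, with 6 each. Taking the widest peak of an interval raises its rank among all peaks of a list. Promoters of other genes were not ranked in this way, so these counts do not set the members apart.

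**Figure D1:**
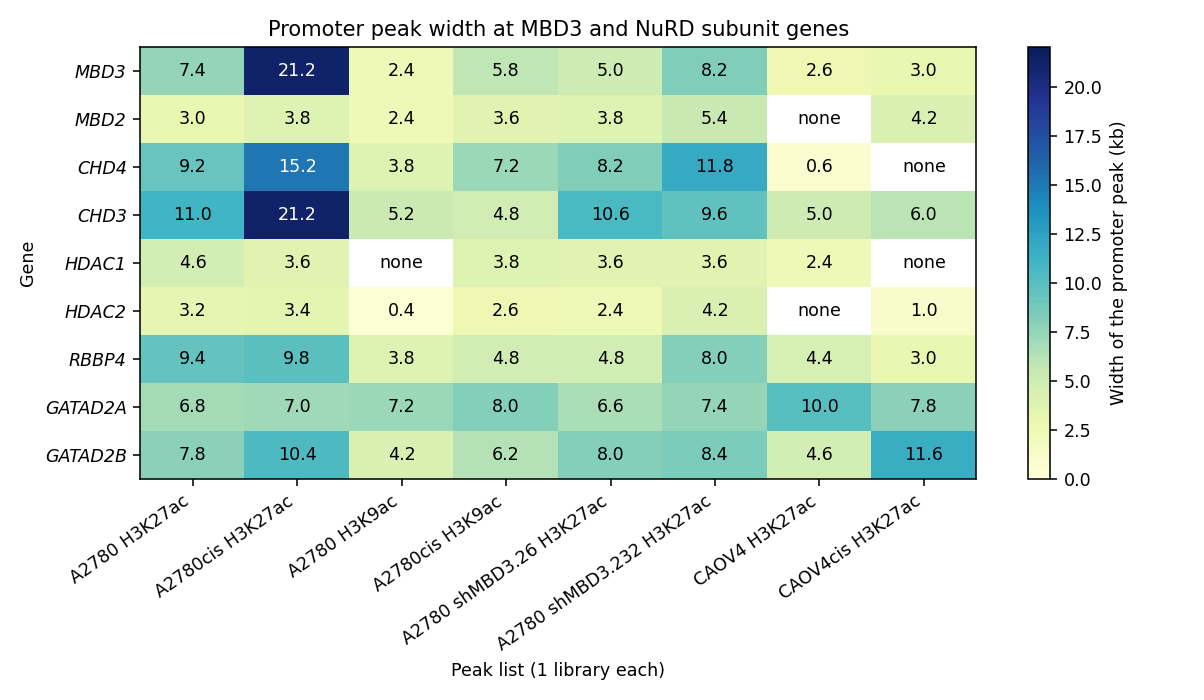
Heat map of the width of the promoter peak in kb (color and printed value) for the 9 genes (rows) in the 8 lists (columns), with no error shown because each condition is 1 library. The darkest cells are *MBD3* and *CHD3* in A2780cis H3K27ac, both at 21.2 kb, and 5 cells, marked none, have no listed promoter peak.

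*MBD3*, which encodes the subunit targeted by the shRNAs, was searched at chr19:1560001-1610000. Its H3K27ac promoter peak spanned 7.4 kb in A2780, 21.2 kb in A2780cis, 5.0 kb with shMBD3.26, 8.2 kb with shMBD3.232, 2.6 kb in CAOV4 and 3.0 kb in CAOV4cis. The H3K9ac promoter peak spanned 2.4 kb in A2780 and 5.8 kb in A2780cis. The resistant A2780cis cells thus had the widest listed peak of each mark, with ratios to A2780 of 2.86 for H3K27ac and 2.42 for H3K9ac. Within its own list, the H3K27ac peak moved from width percentile 89.7 in A2780 to 97.9 in A2780cis. The A2780cis peak at chr19:1586401-1607600 overlapped 3 separate A2780 peaks, at chr19:1587801-1595200, chr19:1596401-1597800 and chr19:1602401-1607000. The added width therefore took in other peaks already listed in A2780 and the gaps between them. This stretch runs past the 5′ end of *MBD3* towards *UQCR11*, the next gene on that side in RefSeq.

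The share of the *MBD3* window under H3K27ac peaks was 46.0% in A2780, 62% in A2780cis, 30.4% with shMBD3.26, 59.2% with shMBD3.232, 22.8% in CAOV4 and 27.6% in CAOV4cis. Under H3K9ac peaks it was 10.4% in A2780 and 26.0% in A2780cis. The shRNAs lay on opposite sides of A2780, shMBD3.26 below and shMBD3.232 above. Both shRNA lists nevertheless held a peak downstream of the promoter where A2780 cells had little. With shMBD3.26 it lay at chr19:1572601-1575800 and overlapped no A2780 peak. With shMBD3.232 it lay at chr19:1572801-1579000 and overlapped the A2780 peak at chr19:1577801-1579800. The A2780cis list had a peak at chr19:1576401-1578000, and neither CAOV4 nor CAOV4cis had one between positions 1567600 and 1587601 of chromosome 19.

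**Figure D2:**
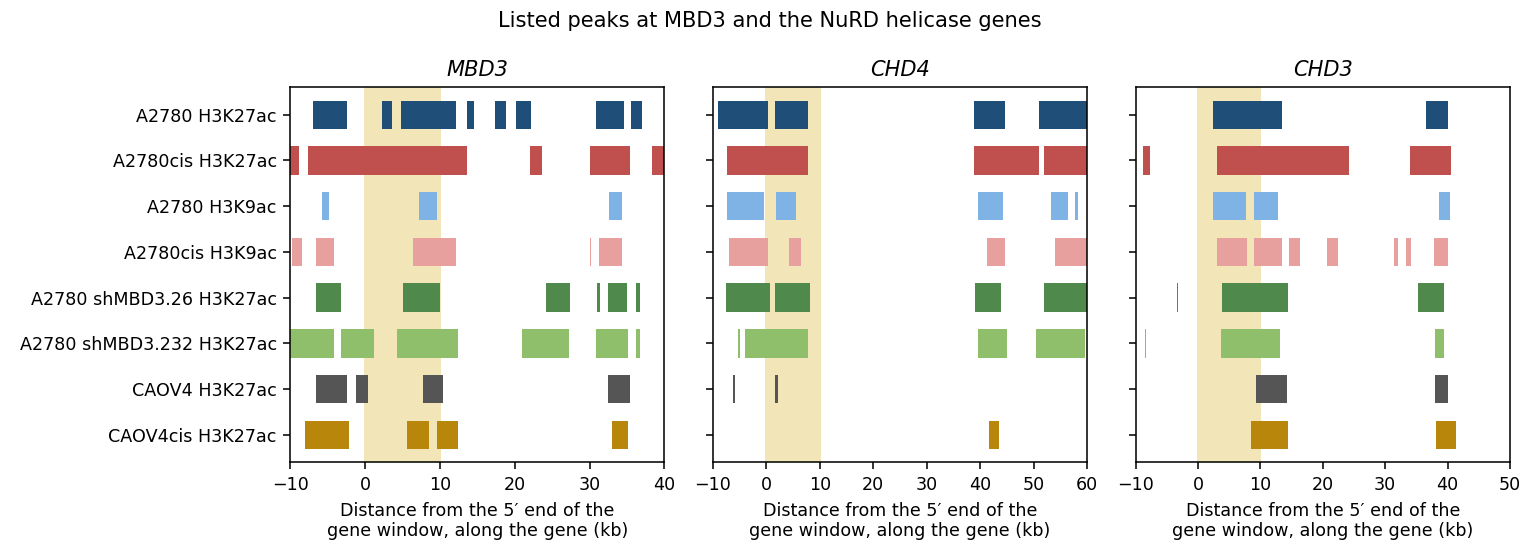
Listed peaks (bars) in the windows of *MBD3*, *CHD4* and *CHD3*, 1 row per list, plotted by distance in kb from the 5′ end of the unextended window along the gene. The shaded band is the 10 kb promoter interval, all of which lies under 1 H3K27ac peak of 21.2 kb at *MBD3* in A2780cis, and the bars show position and width only.

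*MBD2*, the paralog of *MBD3*, had few peaks in its window at chr18:51660001-51770000, none wider than 5.4 kb. The H3K27ac promoter peak was 3.0 kb wide in A2780, 3.8 kb in A2780cis, 3.8 kb with shMBD3.26, 5.4 kb with shMBD3.232 and 4.2 kb in CAOV4cis, and no peak was listed anywhere in the window in CAOV4. For H3K9ac it measured 2.4 kb in A2780 and 3.6 kb in A2780cis, a ratio of 1.5. The peak of shMBD3.232 cells was 1.80 times that of A2780, and by covered length of the interval no gene reached 1.5 with this shRNA. Beyond the promoter, 2 further A2780 H3K27ac peaks, at most 0.6 kb wide, had no partner in A2780cis or with either shRNA. They made up 2 of 3 merged regions in each comparison. The share of all regions with an A2780 peak only was 38.1% for A2780cis, 34.0% for shMBD3.26 and 40.1% for shMBD3.232.

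*CHD4*, which encodes the main remodeling ATPase, was searched at chr12:6660001-6730000. Its H3K27ac promoter peak measured 9.2 kb in A2780, 15.2 kb in A2780cis, 8.2 kb with shMBD3.26, 11.8 kb with shMBD3.232 and 0.6 kb in CAOV4, and none was listed in CAOV4cis. For H3K9ac the widths were 3.8 kb in A2780 and 7.2 kb in A2780cis. As at *MBD3*, the A2780cis peak, at chr12:6712201-6727400, joined listed A2780 peaks, here those at chr12:6712201-6718400 and chr12:6719801-6729000. The second of these overlaps the promoter interval by 200 bp and runs towards *LPAR5*, the next gene on the 5′ side. If the peak with the most bases inside the interval is used instead, the H3K27ac widths become 6.2 kb in A2780 and 6.6 kb with shMBD3.26, and the ratio of A2780cis to A2780 rises from 1.65 to 2.45. The H3K9ac ratio then turns from 1.89 to 0.58, because the A2780cis peak counted becomes 2.2 kb wide. The 1.89 compares peaks that do not overlap. The A2780 partner of the 7.2 kb A2780cis peak is 7.0 kb wide, at chr12:6720401-6727400, and lies outside the interval. By overlapping peaks, H3K9ac went from 7.0 to 7.2 kb and from 3.8 to 2.2 kb. With shMBD3.26 the H3K27ac ratio turns from 0.89 to 1.06, and with shMBD3.232 it rises from 1.28 to 1.90. The direction of the promoter ratio at *CHD4* is therefore set by the choice of peak for H3K9ac and for shMBD3.26. For A2780cis and shMBD3.232 H3K27ac the peak is wider by both. In each of them it joined the A2780 peaks of 6.2 and 9.2 kb, which together ran from the same start to a further end. The wider peak thus bridged the gap between listed A2780 peaks and reached past neither of their outer ends.

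Over the whole *CHD4* window, H3K27ac peaks covered 43.1% in A2780, 50.6% in A2780cis, 39.4% with shMBD3.26 and 38.3% with shMBD3.232. In CAOV4 cells they covered 1.43% and in CAOV4cis 2.86%. The single CAOV4cis peak, at chr12:6676401-6678400, overlapped neither of the CAOV4 peaks. All 4 A2780 H3K27ac peaks of this window had a partner in A2780cis and with both shRNAs.

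*CHD3*, which encodes the alternative ATPase, was searched at chr17:7770001-7830000. Its H3K27ac promoter peak was 11 kb wide in A2780, 21.2 kb in A2780cis, 10.6 kb with shMBD3.26, 9.6 kb with shMBD3.232, 5.0 kb in CAOV4 and 6.0 kb in CAOV4cis. For H3K9ac the widest peak was slightly narrower in A2780cis, at 4.8 kb, than in A2780, at 5.2 kb. The A2780cis H3K27ac peak at chr17:7783001-7804200 overlapped the A2780 peak at chr17:7782401-7793400 and went on in the 3′ direction over a stretch where A2780 had no listed peak. Both marks covered more of the window in A2780cis. H3K27ac went from 14.4 to 28.8 kb, and H3K9ac from 10.8 to 16.4 kb. Of 7 merged H3K9ac regions, 4 held an A2780cis peak only, where the share over all regions was 21.7%.

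The deacetylase genes differed from each other in how much of their windows was listed. *HDAC1*, at chr1:32740001-32810000, had an H3K27ac promoter peak of 4.6 kb in A2780, of 3.6 kb in A2780cis and with each shRNA and of 2.4 kb in CAOV4, and none in CAOV4cis. By the widest peak, it was the only one of the 9 genes with a narrower H3K27ac promoter peak in A2780cis than in A2780. Its H3K9ac promoter peak was listed in A2780cis alone, at chr1:32755201-32759000. H3K27ac covered 21.2 kb of the *HDAC1* window in A2780, 17.6 kb in A2780cis, 13.0 kb with shMBD3.26, 11.8 kb with shMBD3.232, 5.2 kb in CAOV4 and 2.8 kb in CAOV4cis, with A2780 highest.

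*HDAC2*, at chr6:114240001-114310000, had at most 1 peak per list. The H3K27ac peak was 3.2 kb wide in A2780, 3.4 kb in A2780cis, 2.4 kb with shMBD3.26, 4.2 kb with shMBD3.232 and 1.0 kb in CAOV4cis, and none was listed in CAOV4. Its H3K9ac peak grew from 0.4 kb in A2780 to 2.6 kb in A2780cis. This ratio of 6.5, the highest of any promoter here, starts from a peak of 2 grid steps and lifts *HDAC2* from width percentile 14.6 to 48.2 of the H3K9ac lists.

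*RBBP4*, which encodes the histone-binding subunit, was searched at chr1:33100001-33170000 and shares its 5′ side with *ZBTB8OS* on the opposite strand. Its H3K27ac promoter peak was 9.4 kb wide in A2780, 9.8 kb in A2780cis, 4.8 kb with shMBD3.26, 8.0 kb with shMBD3.232, 4.4 kb in CAOV4 and 3.0 kb in CAOV4cis. The ratio of shMBD3.26 to A2780 was 0.51 and that of shMBD3.232 to A2780 was 0.85. The ratio of CAOV4cis to CAOV4 was 0.68, and by the most bases inside the interval, where the CAOV4cis peak is 2.4 kb wide, it was 0.55. The H3K9ac promoter peak at *RBBP4* spanned 3.8 kb in A2780 and 4.8 kb in A2780cis. Near the 3′ end of the window, peaks starting at chr1:33167001 or 200 bp further on were listed in A2780cis, with both shRNAs and in CAOV4cis, but not in A2780 or CAOV4.

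*GATAD2A*, which encodes the p66-alpha scaffold, kept a promoter peak of similar width in every list of A2780 and its derivatives. In its window at chr19:19480001-19630000, the H3K27ac promoter peak was 6.8 kb in A2780, 7.0 kb in A2780cis, 6.6 kb with shMBD3.26, 7.4 kb with shMBD3.232, 10 kb in CAOV4 and 7.8 kb in CAOV4cis. The H3K9ac peak was 7.2 kb in A2780 and 8.0 kb in A2780cis. By the most bases inside the interval, the CAOV4 width is 4.8 kb, which turns the ratio of CAOV4cis to CAOV4 from 0.78 to 1.62. Over the whole window, 8 merged H3K27ac regions held an A2780 peak only, 2 an A2780cis peak only and 6 a peak of both lines, or 10 of 16 in 1 line only, where the share over all regions was 56.0%. H3K27ac coverage went from 64.6 to 49.2 kb and H3K9ac coverage from 33.4 to 20.8 kb. A2780 peaks at chr19:19544201-19547800 and chr19:19591001-19593600 had no partner in A2780cis or with either shRNA. With shMBD3.26 H3K27ac covered 43.2 kb and with shMBD3.232 59.0 kb, and CAOV4 and CAOV4cis had 23.4 and 27.6 kb.

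*GATAD2B*, which encodes the p66-beta scaffold, held 95 of the 350 peaks in its window at chr1:153760001-153910000. The H3K27ac promoter peak was 7.8 kb in A2780, 10.4 kb in A2780cis, 8.0 kb with shMBD3.26, 8.4 kb with shMBD3.232, 4.6 kb in CAOV4 and 11.6 kb in CAOV4cis. The H3K9ac peak was 4.2 kb in A2780 and 6.2 kb in A2780cis. The promoter peak was thus wider in the resistant derivative of each pair. For H3K27ac the ratio was 1.33 in A2780cis and 2.52 in CAOV4cis. The A2780cis H3K27ac peak, at chr1:153887001-153897400, overlapped 2 listed A2780 peaks, at chr1:153885001-153888600 and chr1:153890201-153898000. Together these reached further at both ends. By covered length of the promoter interval, H3K27ac had 7.8 kb in A2780 and 7.4 kb in A2780cis, the opposite direction. In the CAOV4 pair, H3K27ac covered 4.6 kb of the interval in CAOV4 and all of it in CAOV4cis.

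The shRNAs were far apart over the whole extended *GATAD2B* window. H3K27ac covered 70.8 kb of it in A2780, 57.0 kb in A2780cis, 28.0 kb with shMBD3.26, 78.0 kb with shMBD3.232, 12 kb in CAOV4 and 23.6 kb in CAOV4cis. With shMBD3.26, 7 of 17 merged regions held an A2780 peak only (34.0% of all regions), and with shMBD3.232 2 of 17 did (40.1% of all regions). The first count lies near its background. The A2780 peak at chr1:153802601-153807200 had no partner with either shRNA or in A2780cis. Those at chr1:153858401-153862400 and chr1:153885001-153888600 had none with shMBD3.26. Of the 17 merged regions, 5 were listed with shMBD3.232 but not in A2780, where the share over all regions was 10.9%. The widest of them, of 5.2 kb, lay at chr1:153905201-153910400, beyond the 5′ end of the gene's unextended window. For H3K9ac, coverage was 36.4 kb in A2780 and 29.0 kb in A2780cis, and the A2780 peak at chr1:153873001-153880800 had no A2780cis partner.

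**Figure D3:**
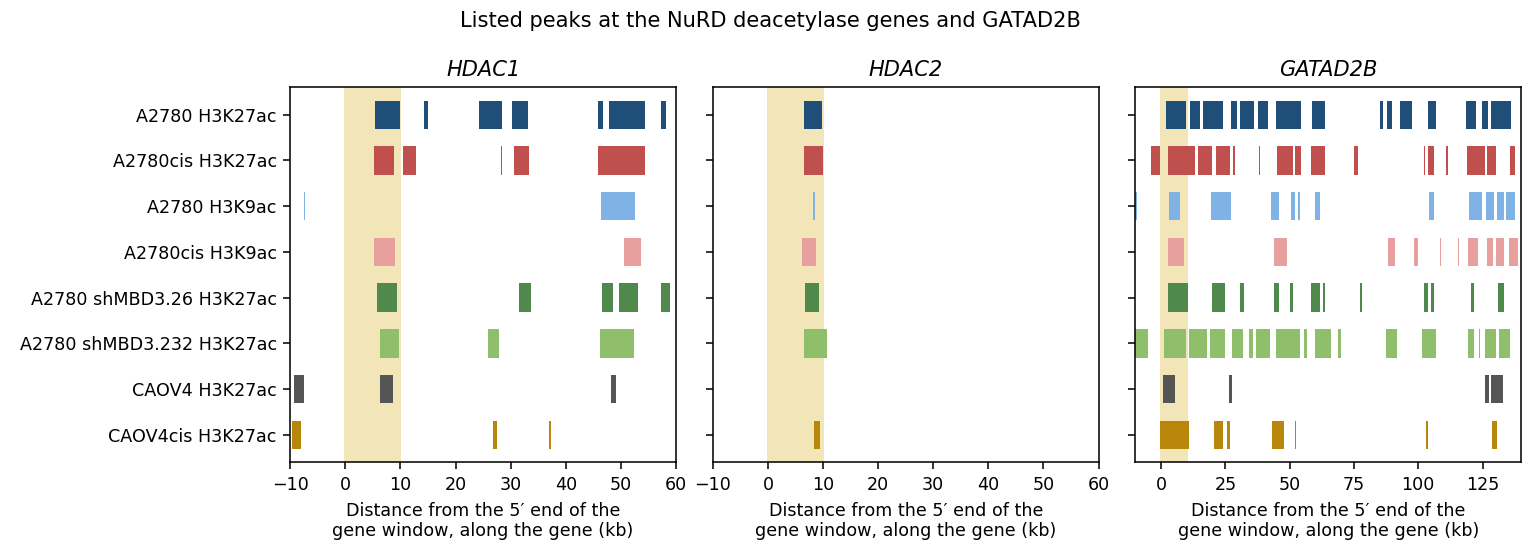
Listed peaks (bars) in the windows of *HDAC1*, *HDAC2* and *GATAD2B*, 1 row per list, plotted by distance in kb from the 5′ end of the unextended window along the gene, with the promoter interval shaded. *HDAC2* has at most 1 peak per list, and the extended *GATAD2B* window is covered over 28.0 kb with shMBD3.26 and 78.0 kb with shMBD3.232.

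The comparison of A2780cis with A2780 asked how these loci differ between resistant and sensitive cells. The comparisons of A2780cis and of both shRNAs share the A2780 H3K27ac list. Of the 9 H3K27ac promoter peaks, 8 were wider and 1 was narrower in A2780cis, and the median ratio was 1.27. Over all regions with a peak in both lists the median was 1.11, and 29.5% were at least 1.5-fold wider in A2780cis. Such widening was listed for 3 members, *MBD3*, *CHD3* and *CHD4*, and narrowing of that size for 0, against 17.2% of all regions. The wider *CHD4* peak joined listed A2780 peaks that together reached further. Where both lists had a peak over 2 kb, as at these promoters, the background was 22.4% wider and 12.7% narrower. For H3K9ac, 8 genes had a ratio, with a median of 1.49 against 1.14 over all regions. *HDAC2*, *MBD3*, *CHD4* and *MBD2* were at least 1.5-fold wider, 4 of 8, where the background was 34.4%. The *CHD4* ratio compares peaks that do not overlap, unlike the background. By overlapping peaks, *CHD4* went from 7.0 to 7.2 kb and from 3.8 to 2.2 kb, short of 1.5-fold wider. Narrowing of that size was again listed for 0, against 19.7%. Over regions with peaks over 2 kb in both H3K9ac lists the shares were 25.2% and 14.8%. These tallies rest on the widest peak. By the covered length of the promoter interval, 1 gene was at least 1.5-fold higher and 1 lower in A2780cis for H3K27ac, *MBD3* and *GATAD2A*, and 3 were higher and 2 lower for H3K9ac. *CHD3*, 1.93-fold wider by its peak, then had 7.6 kb in A2780 and 7.0 kb in A2780cis for H3K27ac. By the peak with the most bases in the interval, 3 were wider and 1 narrower for H3K9ac. With 9 and 8 genes, these counts do not set the members apart from the background.

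Joined peaks were not restricted to *MBD3* and *CHD4*. Of 36 A2780cis H3K27ac peaks in the windows that had an A2780 partner, 9 overlapped at least 2 A2780 peaks, and 10.5% did so in the whole lists. In the other direction, 7 of 38 A2780 peaks overlapped at least 2 A2780cis peaks, against 4.52%. Each of these reverse cases lay in *GATAD2A* or *GATAD2B*.

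The total H3K27ac length over the 9 windows was 243.0 kb in A2780 and 242.8 kb in A2780cis, a ratio of 0.999 where all peaks gave 0.95. Without the *GATAD2B* window the ratio was 1.08. The balance came from opposite changes, since 5 genes were covered more and 3 less. *MBD3*, *CHD4*, *CHD3*, *HDAC2* and *RBBP4* had more and *HDAC1*, *GATAD2A* and *GATAD2B* less, with *MBD2* equal at 3.8 kb. For H3K9ac the totals were 118.4 and 117.0 kb, a ratio of 0.988 where all peaks gave 0.987, with 6 genes covered more and 3 less. This ratio was 1.07 without the *GATAD2B* window. After merging peaks that shared at least 1 bp, 35 of 63 H3K27ac regions in the windows were listed in only 1 line, 21 of them in A2780 (background 38.1%) and 14 in A2780cis (background 17.9%). Together they made up 55.6% (95% Wilson interval 43.3 to 67.2, counting error only), and the background was 56.0%. For H3K9ac, 13 were listed in A2780 only (background 46.0%) and 15 in A2780cis only (background 21.7%), together 28 of 53 or 52.8% (39.7 to 65.6), and the background was 67.6%. Most such regions were narrow, with a median of 1.4 kb for H3K27ac and 1.2 kb for H3K9ac.

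**Figure D4:**
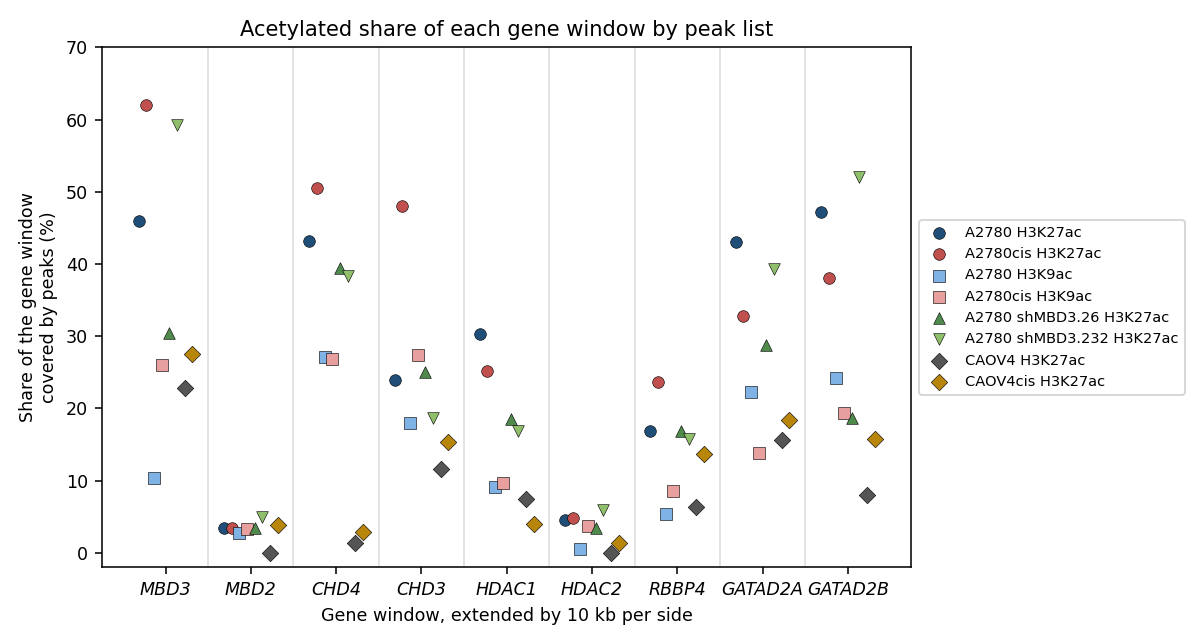
Share of each extended gene window covered by listed peaks, in percent (vertical axis), for the 9 genes (horizontal axis), with 1 marker per list and no error bars because each condition is 1 library. *MBD3* reaches 62% in A2780cis H3K27ac, *GATAD2B* falls to 18.7% with shMBD3.26, and *MBD2* and *HDAC2* are at 0 in CAOV4.

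Most H3K9ac peaks in these windows overlapped an H3K27ac peak of the same line. In A2780, 34 of 39 H3K9ac peaks overlapped an H3K27ac peak, or 87.2%, and the share over all H3K9ac peaks was 66.6%. In A2780cis it was 33 of 41, or 80.5%, against 82.4%. Of the 8 A2780cis H3K9ac peaks outside H3K27ac, 5 lay in the *GATAD2B* window, the widest of them 2.8 kb at chr1:153766801-153769600. Conversely, 30 of 59 A2780 H3K27ac peaks overlapped H3K9ac, or 50.8% against 45.0%, and 24 of 50 did in A2780cis, or 48.0% against 52.9%.

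With the shRNAs, the promoter peaks gave no common direction. Under shMBD3.26, 2 were wider and 7 narrower than in A2780, with a median ratio of 0.891 against 0.875 over all regions. Divided by that median of all regions, the value for the members is 1.02, so the narrowing matched the list as a whole. Under shMBD3.232, 6 were wider and 3 narrower, with a median of 1.09 against 0.923. At least 1.5-fold widening was listed for 0 genes with shMBD3.26 (background 11.8%) and for *MBD2* with shMBD3.232 (background 14.3%), to which the most bases inside the interval add *CHD4*. Narrowing of that size was listed for *RBBP4* with shMBD3.26 (background 30.3%) and for 0 genes with shMBD3.232 (background 25.3%). *MBD2* was the only gene whose window was covered at least as much with both shRNAs as in A2780, at 3.8 and 5.4 kb against 3.8 kb. *CHD4* (27.6 and 26.8 against 30.2 kb), *HDAC1* (13.0 and 11.8 against 21.2 kb) and *GATAD2A* (43.2 and 59.0 against 64.6 kb) were covered less with both. All peaks of the lists together also covered less with both.

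Over all 9 windows, H3K27ac covered 160.0 kb with shMBD3.26 and 237.0 kb with shMBD3.232, against 243.0 kb in A2780. The ratios to A2780 were 0.658 and 0.975, and over all peaks they were 0.795 and 0.817. Much of the gap to all peaks under shMBD3.26 came from *GATAD2B*, without which the ratio was 0.767, while for shMBD3.232 it was 0.923. With shMBD3.26, 24 regions were listed in A2780 only (background 34.0%) and 11 with the shRNA only (background 18%), together 35 of 69 or 50.7% (39.2 to 62.2), against 52.0% in the background. With shMBD3.232 these were 18 (background 40.1%) and 11 (background 10.9%), together 29 of 64 or 45.3% (33.7 to 57.4), against 51.0%.

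**Figure D5:**
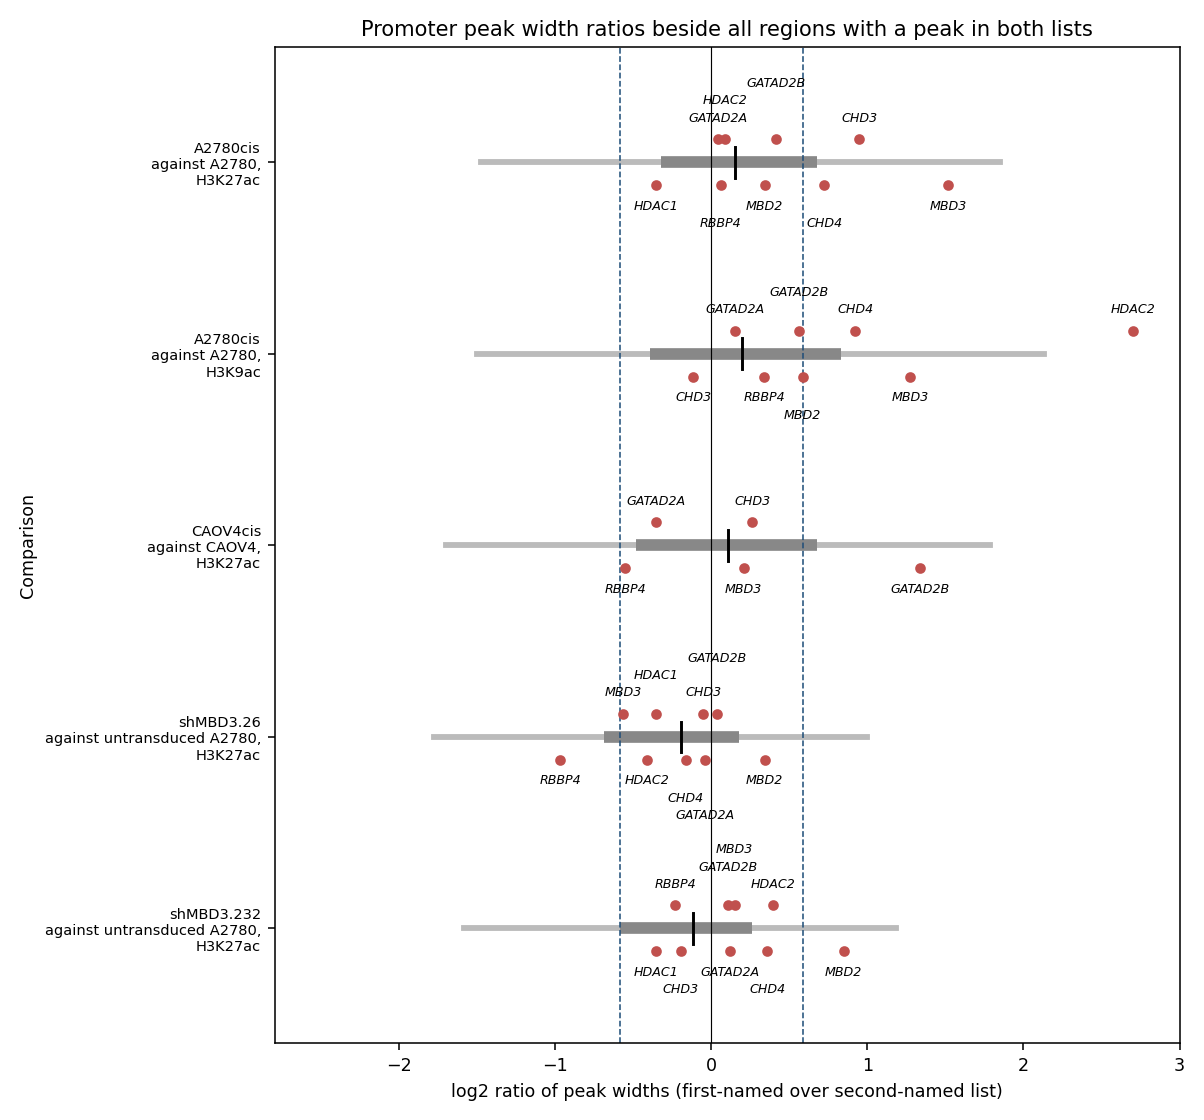
Log2 ratio of promoter peak widths (horizontal axis) for each gene (points) in the 5 comparisons, beside all regions with a peak in both lists. Thick grey bars run from percentile 25 to 75, thin bars from percentile 5 to 95, the black tick is the median and dashed lines mark 1.5-fold. All points lie within the thin bars except *HDAC2* for H3K9ac, on the right.

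The serous pair had fewer peaks at these genes than A2780. CAOV4 listed 25 peaks and CAOV4cis 33 in the windows, covering 64.4 and 93.8 kb. The ratio of 1.46 compares with 1.06 over all peaks, and 8 genes were covered more in CAOV4cis and 1, *HDAC1*, less. Without the *GATAD2B* window the ratio was 1.34. A promoter ratio could be formed for 5 genes, with a median of 1.15 against 1.07 over all regions. Of these, *GATAD2B* was at least 1.5-fold wider in CAOV4cis (background 28.9%) and 0 were narrower by that much (background 22.7%). The *GATAD2A* ratio compares peaks that do not overlap, unlike the background. By the most bases inside the interval, 2 were wider and 1 narrower. Between the lines, *MBD2* and *HDAC2* had a promoter peak in CAOV4cis only and *CHD4* and *HDAC1* in CAOV4 only. Of 41 regions, 11 were listed in CAOV4 only (background 29.1%) and 17 in CAOV4cis only (background 33.8%), together 28 or 68.3% (53.0 to 80.4), against 62.9%.

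Missing partners in the serous pair were also counted from the A2780 side. Of the 59 A2780 H3K27ac peaks in the windows, 39 had no partner in CAOV4 (62.3% of all A2780 peaks) and 38 none in CAOV4cis (61.7%). Of the 22 that had a partner in each of the 5 other lists of A2780 and its derivatives, 7 had none in CAOV4 (background 22.9%) and 5 none in CAOV4cis (background 24.1%). These counts lie near the background shares.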

How the data were processed

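H3K27ac was measured by ChIP-seq in 6 and H3K9ac in 2 conditions, with 1 library each. According to the study's methods and the submitters' processing notes, the authors used Bowtie2 for alignment to hg19, applied quantile normalization and then MACS2 for peak calling, with versions not given in the sources used here. They deposited 1 list per library that gives peak boundaries and a score of 0 throughout, so that no signal, count or fold enrichment was available and the depth is unknown. Quantile normalization can even out differences in peak number and width between libraries.

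The 9 genes, their windows and all comparisons were chosen with earlier results of these data known. Window positions are approximate hg19 positions given to 10 kb, since no hg19 annotation was used, and the promoter interval is the first 10 kb of the unextended window on the gene's strand. Peaks sharing at least 1 bp were merged, and a width ratio of at least 1.5 was counted. No p-value was computed. The same merging over all 179689 peaks on standard chromosomes gave the background, and 6 peaks elsewhere were left out. Background width ratios compared the widest peak of each list within a merged region, at promoters or elsewhere. Promoter ratios of the members took the widest peak of each list in the promoter interval, without requiring overlap. Wilson intervals of 95% cover counting error only. Alternatives were peaks over 2 kb, equal numbers of widest peaks, windows without extension, merging at 50% overlap (relative to the narrower peak), a promoter interval of 20 kb or its covered length, division by the median ratio and a ratio of 2. The rule named every one of the 9 genes, and the regions named were chosen after their values were seen. Promoter sequences and neighboring genes come from RefSeq (GRCh38.p14), which matched all 9 symbols, and guides from the study's supplementary tables. Python 3.11.15, numpy 2.4.6, pandas 2.3.3, SciPy 1.17.1 and matplotlib 3.10.9 were used. The merging was tested on copies of the A2780 H3K27ac list with some peaks removed or shortened, not on joined or shifted peaks.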

Additional observations from a re-analysis of the deposited data

Results flagged for a closer look

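The promoter peak of *CHD4* moved in opposite directions in the resistant derivatives of the cell lines. In the A2780 pair, its H3K27ac width was 15.2 kb in A2780cis and 9.2 kb in A2780. In the CAOV4 pair, it was 0 kb in CAOV4cis, with no listed peak, and 0.6 kb in CAOV4. The CAOV4 peak is a narrow one, at width percentile 13.2 of its list, and the A2780cis peak overlapped 2 listed A2780 peaks. Over the whole extended window, H3K27ac coverage was higher in both resistant lines. It was 30.2 kb in A2780, 35.4 kb in A2780cis, 1.0 kb in CAOV4 and 2.0 kb in CAOV4cis. The difference between the pairs was not tested, since each condition is 1 library.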

How the results depend on the processing

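The median promoter width ratio stayed within 1.5 times the value given under all 20 alternatives run over the 5 comparisons, and crossed 1 in 1 of them, from 0.891 to 1.02 for shMBD3.26 when divided by the median ratio of all regions. The number of regions listed in only 1 list stayed within 1.5 times the value given under 15 of 20 alternatives. The exceptions were all with peaks over 2 kb alone, which uses fewer peaks. That left 17 such regions for A2780cis H3K27ac, 10 for A2780cis H3K9ac, 10 for CAOV4cis, 22 for shMBD3.26 and 11 for shMBD3.232. The share over all regions with this filter was not computed, so these counts cannot be set against a background. Counts of promoters past 1.5-fold are small and moved more often, in 9 of 25 alternatives for wider and 6 of 25 for narrower peaks. For shMBD3.232, the count wider was 2 with an interval of 20 kb and 0 by covered length. With a 2-fold limit, 1 gene was wider in A2780cis for H3K27ac and 2 for H3K9ac. The peak with the most bases inside the promoter interval and the sums without *GATAD2B* were chosen after seeing the data. No paired analysis was possible because each condition is 1 library and the labels give no replicate numbers. The depth of the libraries is unknown, so an unlisted peak cannot be told apart from one under the threshold of the peak caller. The gene windows are approximate, and peaks at their edges may belong to neighboring genes.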

Other observations

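The 3′ side of *HDAC1*, where *MARCKSL1* is the next gene in RefSeq and lies on the opposite strand, held wider peaks than the *HDAC1* promoter in several lists. The widest H3K27ac peak of the window was 6.6 kb in A2780, at chr1:32797801-32804400, and 8.6 kb in A2780cis, at chr1:32795801-32804400. With shMBD3.232 it was 6.2 kb, at chr1:32796201-32802400. With shMBD3.26 the widest peak on this side was 3.6 kb, no wider than the promoter peak of 3.6 kb. For H3K9ac, A2780 had 6.2 kb there and A2780cis 3.0 kb, while the *HDAC1* promoter had a listed H3K9ac peak in A2780cis only, of 3.8 kb. CAOV4 had 1.0 kb, at chr1:32798201-32799200, and CAOV4cis no listed peak beyond chr1:32787001-32787400.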
